A study of Mus musculus with 6 samples.

Results

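The 10 genes described here belong to the sperm acrosome and were chosen by symbol from the gene-level files: the protease gene Acr, its partner Acrbp, the protease inhibitor Spink2, the lysozyme-like gene Spaca3, the matrix gene Acrv1, the zona-binding pair Zpbp and Zpbp2, the surface hyaluronidase Spam1, the membrane gene Spaca1 and the nuclear envelope gene Dpy19l2. All 10 were found among 24411 genes, and all 10 passed the filter on low counts, which kept 17110 genes. RNA of whole testes was sequenced from C57BL/6 mice, an inbred laboratory strain, with 3 libraries labelled MRP5-/- and MRP9-/- (written DKO here) and 3 labelled Wildtype (written WT). The labels do not say how the animals relate beyond separate samples, so p-values measure the spread between these samples. The mice were matched for age, which the labels do not give, and no treatment is named. MRP5 and MRP9 are transporters of the ABCC family, encoded by Abcc5 and Abcc12. How the alleles were made is not given in the sources used here.

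The acrosome is a large secretory vesicle that round spermatids build from Golgi-derived vesicles and spread as a cap over the nucleus. Its dense matrix stores zymogens and binding proteins that are released when the sperm meets the coat of the egg, the zona pellucida. Its inner membrane is held to the nucleus by a protein scaffold, and sperm of mice or men that lack parts of that scaffold have round heads without an acrosome.

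The labels and libraries were examined first. Abcc12 had 72.6 to 82.4 CPM (counts relative to library size, scaled by TMM) in libraries labelled DKO and 158 to 165 CPM in those labelled WT (log2 fold change -1.02), while Abcc5 had 16.8 ± 0.190 against 11.4 ± 0.898 CPM (SD, n = 3 each). Abcc5 was therefore higher where the label names it as missing (edgeR quasi-likelihood test, log2 fold change 0.56, adjusted p = 0.0225), and the groups are named by their labels throughout. Libraries labelled DKO held 42673615 to 67131103 expected counts and those labelled WT 26753721 to 31745969. The mean fragment length was 275 to 317 bases against 230 to 258 bases. Neither overlapped between the groups, so depth, fragment length and genotype cannot be told apart by design. The 10 genes together took 60671 to 149453 counts a library, and no count of a member was under 2166.

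All 10 genes were abundant. As a check of the tissue, the protamine gene Prm1, which packs the DNA of elongating spermatids, stood at 27984 to 34242 TPM (a level per transcript length, relative to all transcripts of a library), and 9 of 10 epididymis markers were too low to test, with 3 of them at 0. In TPM averaged over all libraries, Spink2 was highest at 1079 and Acrbp next at 756. They were followed by Zpbp2 at 347, Spaca1 at 338, Acrv1 at 269, Spaca3 at 246, Acr at 226, Dpy19l2 at 114, Zpbp at 74.0 and Spam1 at 69.4. Spink2 lay at percentile 99.4 of all tested genes and Spam1 at percentile 85.3. In libraries labelled WT, Spink2 (1048 to 1110 TPM), Acrbp (784 to 853) and Dpy19l2 (106 to 111) were separated from their neighbours in this order. Zpbp2 and Spaca1 overlapped (304 to 356 and 311 to 368 TPM), as did Acrv1, Spaca3 and Acr (227 to 287, 245 to 291 and 228 to 233 TPM, where the ranges of Spaca3 and Acr were apart). Zpbp and Spam1 overlapped as well (62.4 to 73.5 and 54.5 to 70.2 TPM). Summed over the 10 genes, the level was 3331 to 3637 TPM in libraries labelled DKO and 3523 to 3564 TPM in those labelled WT, and the groups overlapped (3489 ± 153 against 3550 ± 23.7, SD, n = 3 each; exact two-sided permutation p = 0.7, where 3 against 3 libraries allow no p below 0.1).

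**Figure D1:**
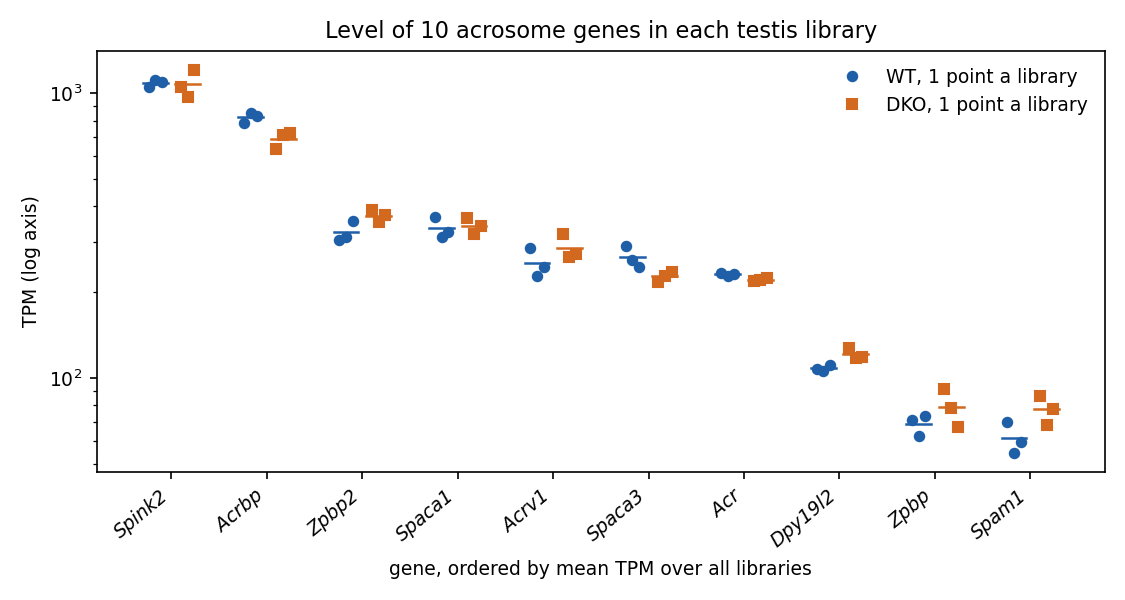
Level of each acrosome gene in TPM (log axis), with 1 point for each library and a short line at the mean of the 3 libraries of a group. Genes run from Spink2 near 1079 TPM to Spam1 near 69.4 TPM, and within a gene the groups lie close together.

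None of the 10 genes passed the test of labelled DKO against labelled WT (edgeR quasi-likelihood test, 0 of 10 at an adjusted p under 0.05), where 10.8% of all tested genes did. The differences were small: the members' log2 fold changes ran from -0.27 for Spaca3 to 0.37 for Spam1. Their median was 0.099, with 6 above 0 and 4 below, against a median of -0.0042 over all tested genes. Leaving out WT replicate 2 moved the median of the 10 to 0.0093, leaving out DKO replicate 1 moved it to 0.030, and removing the length and GC trends moved it to 0.033. At an unadjusted p under 0.05 there were 5 of 10, against 31.7% of all genes. The same 5, Spam1, Spaca3, Dpy19l2, Acrbp and Zpbp2, had adjusted p-values between 0.0566 and 0.0854, and 23.4% of all genes had one under 0.1. In the same 5 the CPM did not overlap between the groups, against 35.9% of all genes. DESeq2 called 4 of the 10 (Spam1 and Dpy19l2 higher, Acrbp and Spaca3 lower), where it called 17.2% of all genes, and limma-voom called 0 of 10 (9.85% of all genes). No member was called either by limma on log2(TPM + 1) (4.30% of all genes) or on log2(TPM + 0.1) (5.53%), with a mean count of at least 50 (14.0%), with the effective length offset (9.71%) or with the fragment length as covariate (0.00584%).

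**Figure D2:**
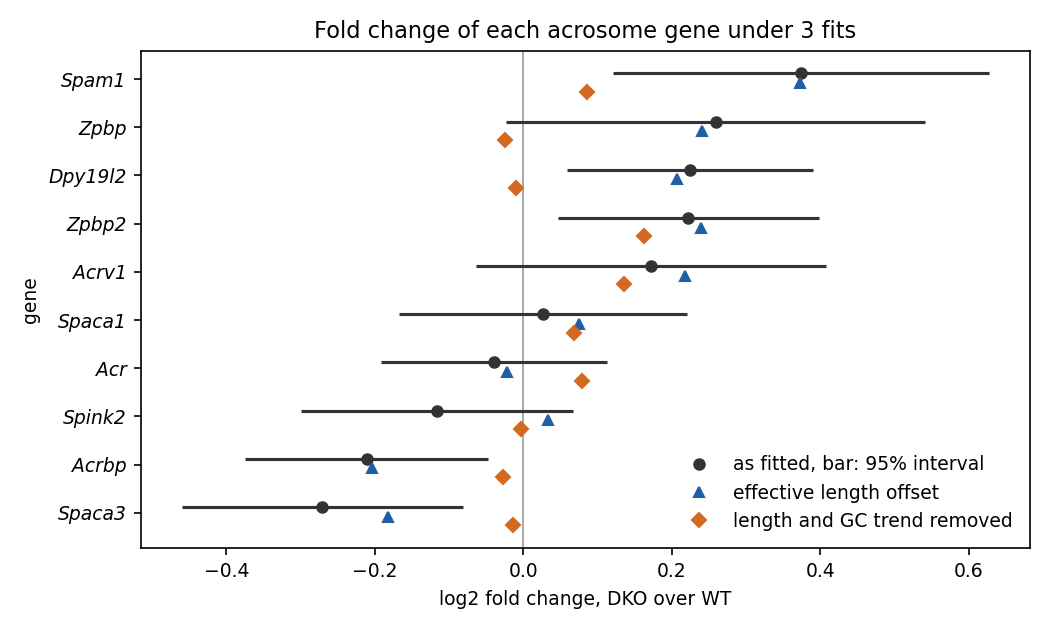
Log2 fold change of each acrosome gene, labelled DKO over labelled WT, from the edgeR fit with its 95% interval, with an offset for effective length, and with the trends on transcript length and GC content removed. As fitted, values run from -0.27 (Spaca3) to 0.37 (Spam1); with both trends removed the largest in size is 0.16 (Zpbp2).

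The 4 members with log2 fold changes below 0 were Acr, Acrbp, Spink2 and Spaca3, and none passed the test. They are described together for their sign and not as a functional group, since the enzyme gene Spam1 was above 0 (0.37). Acr and Spink2 were above 0 in 2 and 3 of 19 alternatives. Acr encodes proacrosin, the zymogen of the serine protease acrosin, on chromosome 15 (89568326 to 89578853, plus strand; all gene positions are those of RefSeq on GRCm38.p6, the same assembly as the mm10 of the submitters' processing notes). It had 198, 179 and 191 CPM in libraries labelled WT and 181, 191 and 182 CPM in those labelled DKO. The groups overlapped, and the log2 fold change was -0.039 (SE 0.0694, 95% interval -0.19 to 0.11; edgeR adjusted p = 0.736). On the TPM scale the same gene did not overlap, at 218 to 224 against 228 to 233 TPM, as was so for 33.2% of all genes, so whether the groups separated depended on the scale.

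Acrbp encodes the protein that binds proacrosin and keeps it packed and inactive in the matrix, from chromosome 6 (125049927 to 125063265, plus strand). It had 588, 594 and 603 CPM in libraries labelled WT and 471, 547 and 524 CPM in those labelled DKO. Every library labelled DKO lay below every library labelled WT, at 86.4% of the WT mean (514 ± 39.3 against 595 ± 7.97 CPM, SD, n = 3 each). The log2 fold change was -0.21 (SE 0.0749, 95% interval -0.38 to -0.047; edgeR adjusted p = 0.0823). The ratio of Acrbp to Acr in TPM was 2.91 to 3.25 in libraries labelled DKO and 3.36 to 3.75 in those labelled WT, without overlap (3.13 ± 0.191 against 3.56 ± 0.193, SD, n = 3 each; p = 0.1 by exact permutation, the smallest that 3 against 3 libraries allow). This ratio was looked at because the proteins are partners, after the values of both genes had been seen. It was not particular to them: 20 of the 45 ratios between members did not overlap, among them those of Acrbp to Acrv1, Zpbp, Zpbp2, Spam1, Spink2 and Dpy19l2. These ratios share genes with one another, and no share over ratios of other genes was computed.

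Spink2 (chromosome 5, 77205106 to 77216258, minus strand) encodes a Kazal-type inhibitor that restrains acrosomal proteases. It had 267, 275 and 274 CPM in libraries labelled WT and 233, 237 and 283 CPM in those labelled DKO. DKO replicate 3 lay above all 3 WT libraries and the other DKO libraries below them, and the log2 fold change was -0.12 (SE 0.0837, 95% interval -0.30 to 0.067; edgeR adjusted p = 0.364). With an offset for effective length its sign changed, to 0.033. It has the shortest transcript of the 10, at 622 bases. Spaca3 (chromosome 11, 80858363 to 80867814, plus strand) encodes a lysozyme-like protein of the acrosome. It had 113, 95.6 and 93.1 CPM in libraries labelled WT and 77.4, 86.8 and 85.5 CPM in those labelled DKO. All 3 DKO libraries lay below the WT libraries, at 82.9% of their mean, and the log2 fold change was -0.27 (SE 0.0866, 95% interval -0.46 to -0.081; edgeR adjusted p = 0.0622).

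The gene of proacrosin's partner has a pair of annotated transcripts. A change in their mix can show in the length column of the files, though not which of them it favours. That column is a mean over a gene's transcripts weighted by their estimated abundance, so it moves only when the estimated mix moves. The fragment length did not overlap between the groups, and its part in that estimate was not tested. In GENCODE M21 (GRCm38) the transcript of 10 exons ends its exon 5 at 125053952 on chromosome 6 and goes on to the sixth. The transcript of 5 exons reads on past that point and ends 242 bases later, at 125054194, within what is an intron of the other. As background, the form that keeps this intron encodes a truncated protein with its own part in building the acrosome. The point where they part is shown with 15 bases of the shared exon in lower case and the 15 that follow in capitals, on the plus strand.
Acrbp, 10 exons: ccaaagcactggcagCCTCCAGCAGCTGCC
Acrbp, 5 exons: ccaaagcactggcagGTACAGGAAATTGTG

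The mean transcript length of Acrbp was 1337, 1335 and 1338 bases in libraries labelled WT and 1356, 1344 and 1352 bases in those labelled DKO. Every DKO library had the longer mean, by 14.6 bases on average, and the groups did not overlap (1351 ± 5.90 against 1336 ± 1.45, SD, n = 3 each; p = 0.1 by exact permutation, the smallest possible). Among 4458 tested genes whose mean length varied between libraries, 16.8% had no overlap. A longer mean stands for a larger estimated share of the longer transcript in the authors' annotation. The share itself was not computed, because the authors' means are below both GENCODE lengths (1883 and 1498 bases), so their annotation has other lengths. Which of the transcripts shown above is the longer one there is not given in the sources used here. Of the 7 members with several transcripts, the other 6 overlapped, the widest difference of group means being -10.3 bases (Zpbp). Exons of 4930557K07Rik and Gm44597 overlap those of Acrbp in GENCODE, and strand handling is not given in the sources used here, so reads of these could not be told apart.

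**Figure D3:**
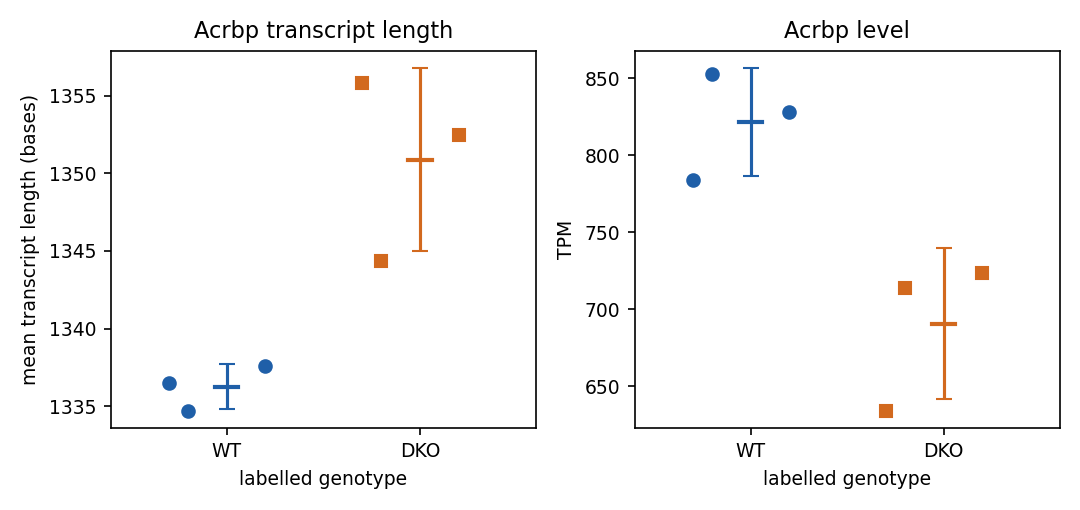
Mean transcript length of Acrbp in bases (left) and its level in TPM (right) in each library, with bars for the mean ± SD of 3 libraries; axes do not start at 0. Libraries labelled DKO lie at 1344 to 1356 bases and 634 to 724 TPM, those labelled WT at 1335 to 1338 bases and 784 to 853 TPM.

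The genes of zona binding and passage, Zpbp2, Zpbp and Spam1, were among the 6 members with log2 fold changes above 0, and none passed the test. Zpbp2 and Zpbp encode matrix proteins that bind the zona pellucida and help to condense the matrix; both genes are on chromosome 11 (98551097 to 98558665, plus strand, and 11279624 to 11464223, minus strand). Zpbp2 had 257, 243 and 290 CPM in libraries labelled WT and 321, 302 and 298 CPM in those labelled DKO, without overlap. In TPM it overlapped, at 304 to 356 in libraries labelled WT and 351 to 389 in those labelled DKO. Its log2 fold change was 0.22 (SE 0.0801, 95% interval 0.047 to 0.40; edgeR adjusted p = 0.0854). Zpbp had 174, 140 and 175 CPM in libraries labelled WT and 228, 200 and 157 CPM in those labelled DKO, so DKO replicate 3 lay among the WT values. Its log2 fold change was 0.26 (SE 0.129; edgeR adjusted p = 0.192), and without DKO replicate 3 it was 0.40 (edgeR adjusted p = 0.0258; 0.0258 to 0.999 over all alternatives). It was 0.12 without DKO replicate 1 (edgeR adjusted p = 0.607) and 0.15 without WT replicate 2 (0.507). Part of the exons of Spata48 overlap those of Zpbp on the other strand. Acrv1, a matrix protein known as SP-10 and a standard mark of acrosome stages (chromosome 9, 36693220 to 36698845, plus strand), had 167, 124 and 138 CPM in libraries labelled WT and 178, 156 and 150 CPM in those labelled DKO. The groups overlapped, and the log2 fold change was 0.17 (SE 0.107, 95% interval -0.063 to 0.41; edgeR adjusted p = 0.293).

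Spam1, known as PH-20, is the hyaluronidase on the sperm surface and inner acrosomal membrane that loosens the cumulus around the egg. It had 90.3, 64.6 and 74.0 CPM in libraries labelled WT and 110, 90.7 and 95.7 CPM in those labelled DKO. The lowest DKO library lay just above the highest WT library, and the log2 fold change was 0.37 (SE 0.116, 95% interval 0.12 to 0.63; edgeR adjusted p = 0.0566, the smallest of the 10). It passed the threshold in DESeq2 (adjusted p = 0.0141), without WT replicate 1 (0.50, adjusted p = 0.0252), without DKO replicate 3 (0.40, adjusted p = 0.0464) and with no filter on low counts (0.38, adjusted p = 0.0394; 0.0141 to 0.999 over all alternatives). The lowest value with a library left out was 0.26, without WT replicate 2 (edgeR adjusted p = 0.201). In TPM the groups overlapped, at 68.5 to 86.1 against 54.5 to 70.2.

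Spam1 (24791188 to 24801048) lies on chromosome 6 in a row of hyaluronidase genes, between Hyal6 (24733245 to 24745452) and Hyal5 (24857937 to 24891959). Both neighbours were called higher where the label is DKO, and neither was called without DKO replicate 1, DKO replicate 2, WT replicate 2 or WT replicate 3. The log2 fold change was 0.56 for Hyal6 (92.9 ± 12.7 against 62.8 ± 9.75 CPM, SD, n = 3 each; edgeR adjusted p = 0.0282) and 0.55 for Hyal5 (143 ± 24.9 against 98.1 ± 20.6 CPM, overlapping; edgeR adjusted p = 0.0409). Hyal4, which lies between Hyal6 and Spam1, was near absent at 0.36 to 0.53 CPM in all 6 libraries (log2 fold change 0.12, edgeR adjusted p = 0.819). All counts of these 4 genes were whole numbers, so no read of them was shared out in fractions. The transcripts of Hyal6, Spam1 and Hyal5 have 38.6%, 39.3% and 39.9% GC. With the trends on length and GC removed their log2 fold changes were 0.23, 0.086 and 0.27, and none was called (edgeR adjusted p = 0.130, 0.631 and 0.208).

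The membrane and anchoring genes were Spaca1 and Dpy19l2. Spaca1 encodes a protein of the acrosomal membrane needed for its spread over the nucleus (chromosome 4, 34024872 to 34050067, minus strand). It had 212, 168 and 183 CPM in libraries labelled WT and 201, 185 and 186 CPM in those labelled DKO, with overlap. The log2 fold change was 0.027 (SE 0.0885, 95% interval -0.17 to 0.22; edgeR adjusted p = 0.863). Dpy19l2 encodes a protein of the inner nuclear membrane that ties the acrosome to the nucleus (chromosome 9, 24557047 to 24696457, minus strand). It had 237, 214 and 237 CPM in libraries labelled WT and 283, 269 and 251 CPM in those labelled DKO, without overlap, and was also apart in TPM (117 to 127 against 106 to 111). Its log2 fold change was 0.22 (SE 0.0757, 95% interval 0.059 to 0.39; edgeR adjusted p = 0.0716), and without DKO replicate 3 it was 0.27 (adjusted p = 0.0433; 0.0420 to 0.999 over all alternatives). The lowest value with a library left out was 0.17, without DKO replicate 1 (edgeR adjusted p = 0.219). The gene Cypt4 lies within the span of Dpy19l2 but shares no exon with it in GENCODE.

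The 10 fold changes were ordered much as the base composition of the transcripts, with Spink2 lowest against its neighbours in GC content. GC content was 39.3% for Spam1, 40.3% for Zpbp, 41.7% for Dpy19l2, 45.6% for Acrv1 and 46.0% for Zpbp2, which all had log2 fold changes of 0.17 or more. It was 53.1% for Acr, 55.4% for Acrbp and 55.5% for Spaca3, of which Acrbp and Spaca3 had the lowest log2 fold changes of the 10. Spink2 at 47.4% and Spaca1 at 48.6% lay in between. Over the 10 genes, Spearman's rho between GC content and log2 fold change was -0.95; over 16840 tested genes with a GC value it was -0.58. These are descriptions across genes that share the same 6 libraries.

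Among all genes, the 805 with under 40% GC had a median log2 fold change of 0.35, with 28.8% called higher and 0.497% called lower. The 4044 with 55% GC or more had a median of -0.19, with 0.297% called higher and 11.9% called lower. The medians of these outer classes lay close to the values of the members within them, Spam1 (0.37) in the first, and Acrbp (-0.21) and Spaca3 (-0.27) in the last. The members of a middle class, 45% to under 50% GC, were more spread. Its median was 0.063, with Spink2 at -0.12, Spaca1 at 0.027, Acrv1 at 0.17 and Zpbp2 at 0.22. When the dependence on transcript length and GC content was fitted and taken out for every library, the 10 log2 fold changes lay between -0.027 and 0.16, with a median absolute value of 0.048 against 0.13 for all tested genes. Acrbp was then at -0.027, Spaca3 at -0.014, Zpbp at -0.025, Dpy19l2 at -0.0096 and Spam1 at 0.086; the largest was Zpbp2 at 0.16 (edgeR adjusted p = 0.214). In that fit 0 of the 10 were called, where 3.03% of all genes were. Removing the trend on length alone left the largest member at 0.39 (Spam1).

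**Figure D4:**
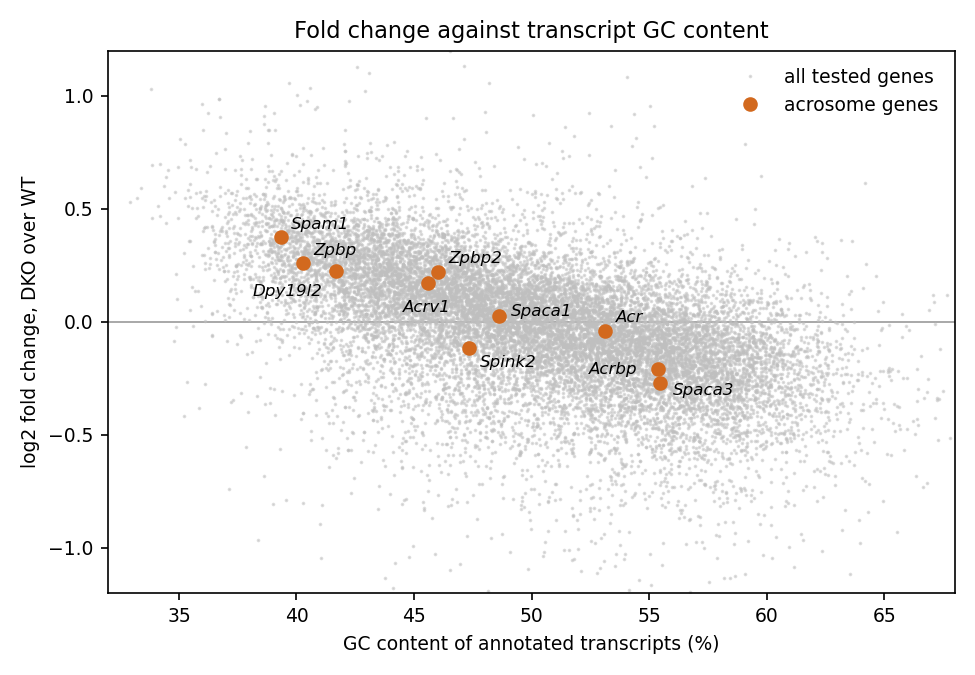
Log2 fold change of labelled DKO over labelled WT against the GC content of a gene's annotated transcripts, for tested genes with a GC value (grey) and the 10 acrosome genes (orange); 70 genes lie outside the axes. The acrosome genes run from Spam1 (39.3% GC, 0.37) to Spaca3 (55.5% GC, -0.27) within the band of all genes.

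The start sites were read for motifs of factors known from spermatids. RefSeq promoter windows were matched for 9 of the 10 genes, and the 250 bases before the start were searched on both strands. The full site of the CREM family was TGACGTCA. Its core, which is part of the full site, was TGACGT. The half-site of RFX factors was GTTGCC. The TATA box was TATAAA. The full CREM site and the TATA box were in 0 of 9 members, against 1.55% and 12.4% of 32851 windows of the same length. The core and the RFX half-site were each in 1 of 9, Acrbp both times, against 6.47% and 10.4% of windows. The windows of Acrbp, with its matches in capitals, and of Spam1, which has none, are shown because one gene was below and the other above the WT libraries. The match of the core in Acrbp begins 18 bases before the start, and that of the half-site, which is on the antisense strand, 199 bases before it.
Acrbp, chr6:125049677-125049926, GRCm38.p6, plus strand: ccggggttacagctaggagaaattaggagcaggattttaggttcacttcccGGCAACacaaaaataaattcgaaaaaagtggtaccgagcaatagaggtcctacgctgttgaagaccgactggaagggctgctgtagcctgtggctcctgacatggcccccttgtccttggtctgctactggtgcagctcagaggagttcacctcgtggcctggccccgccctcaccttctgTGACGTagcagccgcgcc
Spam1, chr6:24790938-24791187, GRCm38.p6, plus strand: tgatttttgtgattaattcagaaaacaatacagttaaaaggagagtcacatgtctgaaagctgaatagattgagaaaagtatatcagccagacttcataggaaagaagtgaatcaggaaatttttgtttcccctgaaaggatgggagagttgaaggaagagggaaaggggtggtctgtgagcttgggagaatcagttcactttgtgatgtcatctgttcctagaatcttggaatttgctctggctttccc
The GC content was 55.6% in the window of Acrbp and 39.6% in that of Spam1, close to the 55.4% and 39.3% of their transcripts. The other members with a window were further apart, in either direction. Zpbp2 had 62.4% in its window and 46.0% in its transcripts, and Spaca3 had 45.6% and 55.5%. A match, or its absence, is a property of these letters and shows no binding.

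The genes that build the acrosome were a separate list. Of 24 such genes, all tested, 7 were called higher and 0 lower in libraries labelled DKO (edgeR), against 5.75% and 5.10% of all tested genes, and the median log2 fold change was 0.20. Galntl5, a transferase-like gene of spermatids, rose from 333 ± 42.5 to 501 ± 67.9 CPM (SD, n = 3 each; log2 fold change 0.59, edgeR adjusted p = 0.0250). Izumo3, a membrane protein needed for the acrosome to form, rose by 0.56 on the log2 scale (adjusted p = 0.0269). The cylicin genes Cylc1 and Cylc2, parts of the cytoskeleton under the acrosome, rose by 0.93 and 0.34 (adjusted p = 0.0335 and 0.0373). The Golgi trafficking genes Tmf1 and Vps54 rose by 0.33 and 0.43 (adjusted p = 0.0363 and 0.0381). The most abundant of the 24 were Actl7a and Actl9, actin-like proteins of the spermatid head, with log2 fold changes of -0.026 and 0.27 (adjusted p = 0.848 and 0.0797).

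Of the 7 genes called, Galntl5, Izumo3, Cylc1, Cylc2, Tmf1 and Vps54 had transcripts of 36.2% to 43.5% GC. With the length and GC trends removed, 2 of the 24 were called, against 3.03% of all genes. They were Galntl5 at 0.44 (edgeR adjusted p = 0.0379) and Fam71f1 at 0.39 (53.0% GC, adjusted p = 0.0461), the latter named after its values were seen. The count was 0 without DKO replicate 1, without WT replicate 2 and without WT replicate 3, in fits that called 0.0643%, 0.0747% and 0.0402% of all genes, and it was 2 without DKO replicate 2 (3.83%). DESeq2 called 11 of the 24, where it called 17.2% of all genes. Limma on log2(TPM + 1) and log2(TPM + 0.1) called 2 and 3 (4.30% and 5.53% of all genes). With the fragment length as covariate edgeR called 0, where it called 0.00584% of all genes. A difference between this list and the 10 genes was not tested.

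Other genes of the acrosome contents and membrane were taken as a list of 17, of which 16 were matched and tested. There 1 was called higher (Hyal5, above) and 1 lower, near the 5.75% and 5.10% of all tested genes, with a median log2 fold change of -0.0015. Pcsk4, a proprotein convertase of the acrosomal surface, fell from 208 ± 10.9 to 166 ± 14.6 CPM (SD, n = 3 each; log2 fold change -0.32, edgeR adjusted p = 0.0366), and was at -0.085 with the length and GC trends removed (61.6% GC; adjusted p = 0.522). The most abundant of these genes were Crisp2, a cysteine-rich secretory protein, and Iqcf1, with log2 fold changes of 0.20 and -0.17 (adjusted p = 0.0979 and 0.216). Of 16 tested genes of acrosomal exocytosis, 1 was called higher and 2 lower. On the log2 scale, Dld, a dehydrogenase subunit, rose by 0.44 and the syntaxin gene Stx1a, part of the fusion machinery, fell by 0.70 (adjusted p = 0.0237 and 0.0292 by edgeR). Stx1a was low, at 1.82 to 2.34 TPM in libraries labelled DKO and 2.77 to 3.99 TPM in those labelled WT. The phospholipase gene Plcd4 was abundant and at 0.064 (adjusted p = 0.575). Of 10 tested paralogs of the members by family name, only Hyal6 was called; Dpy19l1 was at 0.21 (adjusted p = 0.0748). Taking out the length and GC trends left 0 calls in these 3 lists (edgeR, against 3.03% of all genes). There were also 0 calls in them without DKO replicate 1, without WT replicate 2 and without WT replicate 3.

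In whole testes, fewer cells of a type and less RNA per cell cannot be told apart, so the members were set beside markers of the cells that make the acrosome. Of 10 other round spermatid markers, 2 were called higher (Tex21 and Lrrc34, log2 fold changes 0.45 and 0.44) and 0 lower, against 5.75% and 5.10% of all tested genes. Of the other 8, 6 had log2 fold changes above 0, while Rfx2 was at -0.29 and Catsper3 at -0.14 (edgeR adjusted p = 0.0523 and 0.220), and the TPM of these did not overlap between the groups. The 10 had a summed level of 3018 to 3193 TPM in libraries labelled DKO and 2694 to 3004 TPM in those labelled WT. Relative to the mean log2 TPM of these 10 markers, the mean of the acrosome genes was 0.33 to 0.35 in libraries labelled DKO and 0.39 to 0.43 in those labelled WT, without overlap (0.34 ± 0.0127 against 0.41 ± 0.0191, SD, n = 3 each; p = 0.1 by exact permutation, the smallest possible). Relative to 12 elongating spermatid markers it overlapped (-4.07 to -3.86 against -4.01 to -3.98; exact permutation p = 0.7). Of those 12, 1 was called higher (Akap4) and 1 lower (Gapdhs).

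Among markers of other cells, 2 of 12 spermatocyte markers were called higher, and 4 of 12 Sertoli and 4 of 10 Leydig cell markers were called lower, with 0 called the other way in each list, against 5.75% higher and 5.10% lower over all tested genes. Median log2 fold changes of the spermatocyte, Sertoli and Leydig lists were 0.32, -0.25 and -0.49. Once the dependence on length and GC had been taken out, these medians were 0.075, -0.088 and -0.59. Whether the calls in these lists held without single libraries was not tested. None of 11 tested spermatogonia and 10 macrophage markers was called by edgeR. An unadjusted p under 0.05 was found for 1 and 4 of them, against 31.7% of all tested genes. No marker of these lists other than those of the epididymis was at 0 in every library. Summed Leydig markers were 1095 to 1811 TPM in libraries labelled DKO and 1803 to 3804 TPM in those labelled WT, and summed Sertoli markers 1107 to 1372 against 1260 to 1637 TPM. Their part in the values of the acrosome genes was not tested.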

How the data were processed

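Per the file headers, each deposited file is gene-level RSEM output for 1 library, with an expected count, TPM, FPKM, length and effective length for each gene. The submitters' processing notes list STAR 2.7.0f, RSEM 1.2.31, DESeq2 1.12.3 and mm10, without their order; strand handling and read filters are not given in the sources used here. The authors' expected counts are estimates of RSEM, whole in 93.2% of values and in all 60 values of the 10 genes (tolerance 0); they were rounded. The authors' TPM are corrected for effective length, and the deposited FPKM values were not used.

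Labelled DKO was compared with labelled WT in edgeR 4.0.16 (filterByExpr, TMM, quasi-likelihood test, genotype only; R 4.3.3), with Benjamini-Hochberg adjustment over all tested genes and calls under 0.05. The standard error is the absolute log2 fold change over the root of F. The members, lists and tests were chosen with earlier results of these data known. Genes named beyond the 10 are both targeted genes and, in each related list, up to 6 called genes with the smallest p and the 2 most abundant. 1 gene that this rule names is not reported here. Hyal4, Fam71f1 and the cell type markers were named outside the rule, after their values were seen. Replicates were numbered in order of deposition. The lowest chi-square per degree of freedom between any 2 libraries was 6.37, so none was deposited more than once. GC content came from GENCODE M21 transcripts with the same RefSeq accessions (98.4% of tested genes). Fragment length was read from genes over 3000 bases, by subtracting the effective from the full length, adding 1 and taking the median. Alternatives were other scalings, filters and tools (DESeq2 1.42.0, limma 3.58.1), offsets for length, the fragment length as covariate, thinning and leaving out each library; the offset for length and GC (mgcv 1.9.3) was added after seeing the data.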

Additional observations from a re-analysis of the deposited data

How the results depend on the processing

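Of the 10 genes, 0 were called higher or lower by edgeR, limma-voom and limma on TPM with all 6 libraries and the filter in place. Another count was given by edgeR with no filter (1 higher, Spam1), by DESeq2 (2 higher and 2 lower) and by leaving out a replicate (0 to 3 higher, with 3 without DKO replicate 3, where 17.7% of all genes were called, and 1 without WT replicate 1, where 11.7% were). With no filter edgeR called 2321 of 21125 tested genes, and the share of all genes called by DESeq2 is given in the Results. Calls over all genes numbered 1856, of which 53.0% were higher. They numbered 2943 with DESeq2, 735 on log2(TPM + 1) and 947 on log2(TPM + 0.1) (38.0% and 39.1% higher), 519 with the length and GC trends removed (62.2% higher), 1 with the fragment length as covariate, 7 at an adjusted p under 0.01, and 7 to 3029 when a replicate was left out. With the fragment length as covariate, which does not overlap between the groups, the median of the 10 reversed to -0.078, as did Acrv1 (-0.25), Spaca1 (-0.24), Zpbp (-0.34), Spam1 (-0.057) and Spink2 (0.11); 545 genes had an unadjusted p under 0.05. Spink2 also reversed with the effective length offset (0.033) and with the length trend removed (0.061), as Acr did with the latter (0.019). With length and GC trends removed Acr was at 0.079, Zpbp at -0.025 and Dpy19l2 at -0.0096. Spaca1 reversed in 2 of the fits that left out a replicate, at -0.023 without DKO replicate 1 and -0.053 without WT replicate 2. None of these reversed values was called, and the cause was not tested. Spaca3, Acrbp and Zpbp2 kept their direction in all 19 alternatives. No paired analysis was possible because the labels give no replicate numbers shared between the groups.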
